A study of Mus musculus with 2 samples.

Results

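Foxf2-FLAG peaks at 10 genes of the noncanonical Wnt and planar cell polarity pathway were described in mouse palatal shelves, the outgrowths of the upper jaw that meet to form the palate. The genes were Wnt5a, Wnt5b, Wnt11, Ror1, Ror2, Ryk, Vangl1, Vangl2, Prickle1 and Prickle2, out of 22372 protein-coding genes. A peak counted for a gene when its centre lay inside the gene, or when, among all transcription start sites (TSS) of protein-coding genes, the closest was one of that gene and at most 100 kb away. By this rule 22 of the 9165 peaks in the list belonged to the 10 genes. Of these, 14 met both conditions, 5 met the TSS condition alone and 3 lay inside the gene but beyond 100 kb of its TSS or nearer to the TSS of another gene.

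The series holds 1 anti-FLAG chromatin immunoprecipitation (ChIP) library of 26849463 tags and 1 input library, chromatin sequenced without immunoprecipitation, of about 19233911 tags. For both, the labels give 50 pairs of shelves, taken at E13.5 (embryonic day) from Foxf2FLAG/FLAG embryos, which are homozygous for a 3xFLAG tag that genome editing added to the endogenous Foxf2 protein. Neither library has a replicate, an anti-FLAG ChIP from embryos without the tag was not analysed here, and no cell type of the shelf was separated. Only peak regions were analysed, so the tissue label was not checked against marker expression, and intervals below cover counting error within 1 library of each kind.

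Noncanonical Wnt ligands such as Wnt5a signal through Ror and Ryk receptors and frizzled proteins to the cytoskeleton and to small GTPases, without stabilising beta-catenin. Vangl and Prickle proteins belong to the planar polarity core, a set of proteins that sorts to opposite sides of neighbouring cells and orients them within a tissue. In mice, loss of Wnt5a or of Ror2 gives cleft palate and short limbs. Foxf2 belongs to the forkhead family of transcription factors and is active in palate mesenchyme. Forkhead proteins bind variants of the sequence GTAAACA.

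The central 200 bp of 6 of the 22 peaks held a forkhead site, which was searched on both strands as the sequence GTAAACA, as the sequence ATAAACA and as the related sequences GTAAATA and also ATAAATA. All 6 windows are shown, 4 of them from peaks with over 80 ChIP tags at Ror1 and Prickle2, and the other two, Ror1 peak 5 and Ryk peak 1, from peaks with 19 and 18 tags. Bases run along the plus strand of mm9 and capitals mark the site, which reads as its reverse complement where it lies on the minus strand. The deposited list does not say whether its positions count from 0 or from 1. They were read as counting from 1, so peak ends, and distances from a peak centre, may be off by 1 bp. The peaks of a gene are numbered in the direction of its transcription.
Ror1 peak 1, chr4:99774308-99774507: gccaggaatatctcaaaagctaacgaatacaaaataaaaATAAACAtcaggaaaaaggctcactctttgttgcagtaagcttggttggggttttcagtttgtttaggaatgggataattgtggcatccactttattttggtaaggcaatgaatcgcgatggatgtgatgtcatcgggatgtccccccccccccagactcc
Ror1 peak 3, chr4:99817495-99817694: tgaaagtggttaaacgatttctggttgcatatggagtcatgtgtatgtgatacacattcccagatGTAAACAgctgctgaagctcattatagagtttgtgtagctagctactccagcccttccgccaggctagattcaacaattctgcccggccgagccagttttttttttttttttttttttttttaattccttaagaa
Ror1 peak 5, chr4:99876108-99876307: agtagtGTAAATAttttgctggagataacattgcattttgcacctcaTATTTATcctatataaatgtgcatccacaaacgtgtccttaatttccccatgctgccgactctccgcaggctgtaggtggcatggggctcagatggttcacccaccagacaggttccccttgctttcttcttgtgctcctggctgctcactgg
Ryk peak 1, chr9:102745901-102746100: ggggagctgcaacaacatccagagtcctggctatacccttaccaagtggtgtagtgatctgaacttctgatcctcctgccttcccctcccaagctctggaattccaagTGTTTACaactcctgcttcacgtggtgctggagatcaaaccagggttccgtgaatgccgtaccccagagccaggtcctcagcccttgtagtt
Prickle2 peak 5, chr6:92554878-92555077: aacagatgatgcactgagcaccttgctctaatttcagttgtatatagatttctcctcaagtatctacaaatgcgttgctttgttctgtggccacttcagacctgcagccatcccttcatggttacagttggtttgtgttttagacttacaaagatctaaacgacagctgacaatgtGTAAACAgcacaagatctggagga
Prickle2 peak 6, chr6:92364628-92364827: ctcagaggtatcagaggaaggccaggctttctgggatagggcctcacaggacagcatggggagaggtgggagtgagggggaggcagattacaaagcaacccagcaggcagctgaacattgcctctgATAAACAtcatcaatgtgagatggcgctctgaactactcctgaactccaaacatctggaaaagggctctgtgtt

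Peaks lay at 9 of the 10 genes, every one except Ror2. Over all protein-coding genes, 23.9% had at least 1 peak by the same rule. At least 2 peaks were counted at 5 of the 10 genes, against 6.79% of all genes, and 6 peaks each at Ror1 and Prickle2, while 0.375% of all genes had 6 or more. Genes differ in how much sequence the rule gives them. A gene and the surroundings that the rule assigns to it came to a median of 209 kb for the 10 genes and 52 kb over all genes. Of the 8461 genes with surroundings of 70.8 to 419 kb, the range of the 10 genes, 39.3% had a peak. Their shares with at least 2 and at least 6 peaks are not given here. Ror1 (419 kb) and Prickle2 (390 kb) had the longest surroundings of the 10.

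The 10 genes together held 9.82 peaks per Mb of such sequence, against 4.13 over all protein-coding genes. At the rate of all genes, their 2.24 Mb would hold 9.24 peaks. Ror1 had 6 peaks where that rate gives 1.73, and Prickle2 had 6 where it gives 1.61. Vangl2, with the shortest surroundings, had 2 where it gives 0.292. Wnt5a, Wnt5b and Wnt11 each had 1, where it gives 0.853, 0.874 and 0.70, and Ror2 had 0 where it gives 0.88. The 3 ligand genes thus stayed near the general rate, while Ror1, Prickle2 and Vangl2 stood at over 3 times it. Counts this small were not tested, and the 10 genes were chosen with earlier results of these data known.

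**Figure D1:**
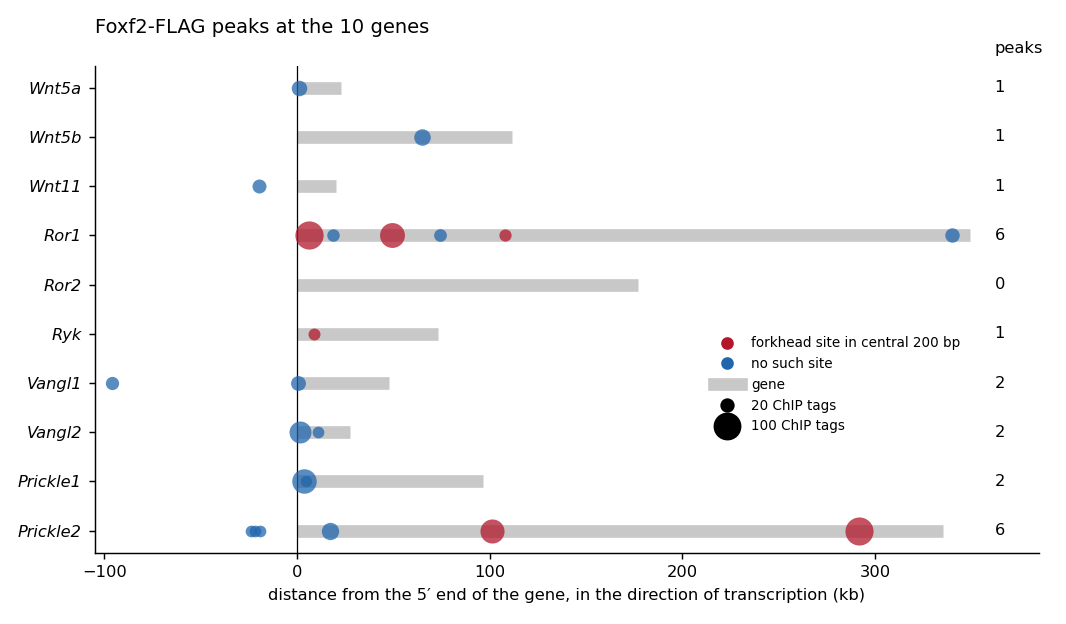
Peaks at the 10 genes, with the distance of the peak centre from the 5′ end of the gene on the x axis (kb, positive downstream), the gene as a grey bar, the area of a point rising with its ChIP tags and red points marking a forkhead site in the central 200 bp. Ror1 and Prickle2 carry 6 peaks each, 3 of those at Prickle2 lie upstream of the gene, and Ror2 has none.

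**Figure D2:**
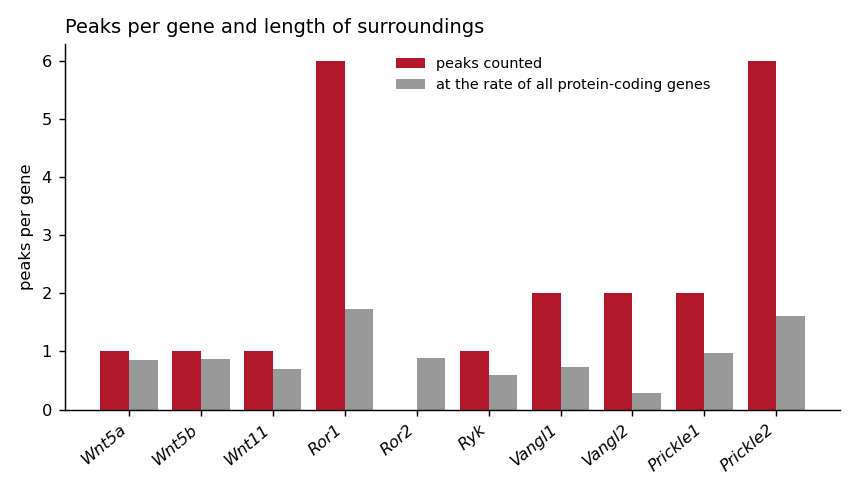
Number of peaks at each gene (red) beside the number that the rate of all protein-coding genes, 4.13 per Mb, gives for sequence of the same length (grey). The red bar is at least 3 times as high as the grey one at Ror1, Vangl2 and Prickle2, and missing at Ror2.

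Most of the 22 peaks were intronic. Introns of the gene itself held 16, and 12 of these were in a first intron. The rule counts any peak inside a gene, and the intronic share of all peaks is not given here. Another 5 were intergenic and 1, at Wnt5a, was in the first exon. Just 3 (13.6%, Wilson 95% interval 4.75 to 33.3), at Vangl1, Vangl2 and the Fbxl14 start inside Wnt5b, had a TSS within 1 kb, as did 25.7% of all peaks. The median distance to the nearest TSS was 18718 bp, against 24088 bp over all peaks.

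Of the ligand genes, Wnt5a (chr14:29317936-29340633, plus strand), which encodes a noncanonical ligand made by the palatal mesenchyme, had its peak at chr14:29318792-29319715. The centre was 1.32 kb downstream of the TSS, in untranslated sequence of exon 1 of 5. The peak held 33 ChIP tags against 2 input tags, an 11.8-fold excess over input after scaling for depth (3.02 to 102, the exact 95% interval, which follows each fold below). Its score, the peak caller's own measure, was 17, the lowest in the list. The GC content of its centre was 63.5%, and no forkhead site lay anywhere in its 923 bp.

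Wnt5b (chr6:119382549-119494336, minus strand), the closest paralogue of Wnt5a, contained 1 peak, and it coincided with the start of another gene. The peak at chr6:119429127-119429882 lay in intron 1 of 4 of Wnt5b and 182 bp from the TSS of Fbxl14, which encodes an F-box protein and lies inside the Wnt5b record on the other strand. It held 38 ChIP tags against 2 in the input (fold 13.6, 3.52 to 116), and its score was 33. Under the TSS condition alone it would count for Fbxl14 and Wnt5b would have none. Its centre is shown as an example of the GC-rich windows without a forkhead site (78.5% GC, 35 CpG).
Wnt5b peak 1, chr6:119429404-119429603: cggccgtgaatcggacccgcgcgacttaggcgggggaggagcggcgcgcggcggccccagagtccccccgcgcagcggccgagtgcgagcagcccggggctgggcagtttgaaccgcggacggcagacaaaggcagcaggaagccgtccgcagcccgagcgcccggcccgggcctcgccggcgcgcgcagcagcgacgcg

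Wnt11 (chr7:105983622-106003705, plus strand), a ligand of convergent extension movements in fish and frog embryos, had 1 intergenic peak 19.9 kb upstream of its TSS at chr7:105963472-105963972. It held 26 ChIP tags against 1 in the input (fold 18.6, 3.06 to 764) at a score of 25. Although far from an annotated protein-coding start, its centre had 66% GC and 12 CpG and no forkhead site. At least 60% GC was found in 5 of the 22 peaks (22.7%, against 23.7% of all peaks). These were the 3 at ligand genes and the promoter peaks of Vangl2 (62%) and Vangl1 (72%).

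The receptor gene Ror1 (chr4:99768396-100117370, plus strand), which encodes a receptor tyrosine kinase of the Wnt5a-binding Ror family, carried 6 peaks, all intronic. The nearest to the TSS was peak 1 at chr4:99773957-99774860, 6.01 kb downstream, with 118 ChIP tags against 6 in the input (fold 14.1, 6.28 to 39.2) and a score of 38. It had the most ChIP tags of the 22 peaks and ranked 466th by tags in the whole list. Peak 3 at chr4:99817283-99817908, 49.2 kb downstream, had 91 ChIP tags against 6 in the input (fold 10.9, 4.8 to 30.4) and the highest score of the set, 90. It ranked 244th of all peaks by score, in the top 2.66%.

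The other Ror1 peaks were much smaller. Peaks 2, 4 and 5, at 18.5, 74.4 and 108 kb, held 20, 21 and 19 ChIP tags against 1 input tag each. Peak 6 at chr4:100108117-100108617 lay in the last intron, 340 kb from the TSS and 43.1 kb from that of Ube2u, with 28 ChIP tags against 1 input tag. Peaks 1 to 5 were all in intron 1 of 8, with 12.5 to 33.4 kb between neighbouring centres. The counting intervals of peaks 1 and 3 (from 97.7 and 73.3 tags upward) lay above those of the other 4, of which the highest reached 40.5.

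Ror1 peaks 1, 3 and 5 were the ones with a central forkhead site, in the windows printed above. Peak 1 had ATAAACA 58 bp from its centre, at chr4:99774347-99774353. Peak 3 had GTAAACA 32 bp from its centre, at chr4:99817560-99817566. Peak 5 had GTAAATA and ATAAATA, variants with a smaller excess in the list as a whole. ATAAATA was in 8.51% of all centres and 7.63% of windows of equal width 2000 bp upstream. GTAAATA was in 6.07% and 3.73%, while GTAAACA was in 15.3% and 3.30%. Peak 6 had GTAAACA outside the central window, 174 bp from the centre.
Ror1 peak 6, chr4:100108160-100108226: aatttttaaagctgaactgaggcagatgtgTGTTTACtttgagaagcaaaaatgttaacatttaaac

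Ror2 (chr13:53204681-53381493, minus strand), which encodes the other Ror receptor, had no peak within its 177 kb or assigned to its TSS. The nearest peak past its 3′ end lay 126 kb away at chr13:53078336-53078836, with 17 ChIP tags against 1 input tag, near the start of Nfil3. The nearest one upstream lay 201 kb from the TSS at chr13:53582111-53582864, with 75 ChIP tags against 4 input tags and a score of 57, and was assigned to Msx2, a homeobox gene. Between them 503 kb held no peak. The caller set a threshold of 17 tags and asked for 10 times the input and 10 times the local level, so a count of 0 means that no region here was listed, not that Foxf2 was absent.

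Ryk (chr9:102737250-102810637, plus strand), a Wnt receptor with an atypical kinase domain, had 1 peak in intron 1 of 14, 8.75 kb downstream of its TSS at chr9:102745751-102746251. It held 18 ChIP tags against 1 in the input (fold 12.9, 2.04 to 537) with a score of 18, close to the minimum of the list. Among the 20 forkhead sites in the 22 peaks, its site lay closest to a peak centre. GTAAACA stood on the minus strand 11 bp away, at chr9:102746009-102746015.

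Vangl1 (chr3:101960624-102008616, minus strand) and Vangl2 (chr1:173931091-173958575, minus strand) encode transmembrane proteins of the planar polarity core, and each had 1 peak at its promoter. That of Vangl1, peak 2 at chr3:102008053-102008553, lay 313 bp from the TSS and held 30 ChIP tags against 2 in the input (fold 10.7, 2.73 to 92.8), at a score of 30. That of Vangl2, peak 1 at chr1:173956344-173957577, lay 118 bp from an annotated TSS and held 70 ChIP tags against 3 in the input (fold 16.7, 5.49 to 83). At 1233 bp it was the widest of the 22, and its score was 22. The centres of both promoter peaks were GC-rich and without a forkhead site. Vangl2 peak 1 had one GTAAATA, 442 bp from its centre.

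The second Vangl2 peak, in an intron at chr1:173947144-173947644, had 17 ChIP tags and no input tag, which makes it at least 4.06-fold higher in the ChIP when 3 tags are taken as the floor for the input. The lower end of its exact 95% interval was 2.96, and with no input tag the interval has no upper end. GTAAACA lay 127 bp from its centre. The second Vangl1 peak, numbered 1, was intergenic at chr3:102104204-102104704, 95.8 kb upstream of the TSS, with 23 ChIP tags against 1 in the input (fold 16.5, 2.68 to 679). Its centre is printed because it consists in good part of a CA repeat and holds no forkhead site. How well short reads can be placed in this repeat was not tested.
Vangl1 peak 1, chr3:102104354-102104553: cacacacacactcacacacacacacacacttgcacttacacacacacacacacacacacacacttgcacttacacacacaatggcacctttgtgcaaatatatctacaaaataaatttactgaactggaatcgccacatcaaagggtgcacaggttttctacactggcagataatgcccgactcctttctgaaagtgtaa
Vangl2 peak 2, chr1:173947488-173947554: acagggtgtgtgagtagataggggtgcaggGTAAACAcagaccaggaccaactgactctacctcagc

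Prickle1 (chr15:93329545-93426322, minus strand), which encodes a LIM-domain partner of Vangl proteins, had 2 peaks in intron 1 of 7 whose centres were 1.02 kb apart. Peak 1 at chr15:93422179-93422679, 3.89 kb downstream of the TSS, held 88 ChIP tags against 6 in the input (fold 10.5, 4.64 to 29.4) in 500 bp. Per kb it was the densest of the 22, at 13.1 times the genome mean of ChIP tags, and its input was also the highest, at 1.25 times the mean of the input. Its score of 68 was second to that of Ror1 peak 3. Peak 2 held 16 ChIP tags against 1 input tag, the fewest of the set. The 1 forkhead site of peak 1 lay beyond the central window, 130 bp from the centre.
Prickle1 peak 1, chr15:93422526-93422592: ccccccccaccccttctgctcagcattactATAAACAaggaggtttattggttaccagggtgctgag

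Prickle2 (chr6:92320886-92656139, minus strand), its paralogue, had 6 peaks, from 23.6 kb upstream to 291 kb into the gene. Peaks 1, 2 and 3 were intergenic, the nearest 18.9 kb upstream of the gene, with 17 ChIP tags against 1 input tag each and scores of 17 to 19. Their centres were 1.96 and 2.72 kb apart. Peak 4 at chr6:92638536-92639036, 17.4 kb downstream of the TSS, held 42 ChIP tags against 3 in the input (fold 10.03, 3.20 to 50.6).

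The deepest Prickle2 peaks lay far from the 5′ end of the gene, though nearer to alternative starts. Peak 5 at chr6:92554598-92555358, 101 kb from the 5′ end and 37.6 kb from an alternative start, held 85 ChIP tags against 4 in the input (fold 15.2, 5.73 to 57.1) at a score of 49. Peak 6 at chr6:92364300-92365157 lay 291 kb from the 5′ end and 66.7 kb from an alternative start. It held 117 ChIP tags against 6 in the input (fold 13.97, 6.23 to 38.8). It ranked 476th by tags but only 5255th by score (22). It had 4 forkhead sites, the most of the 22 peaks, of which ATAAACA at chr6:92364754-92364760 was 29 bp from the centre.

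**Figure D3:**
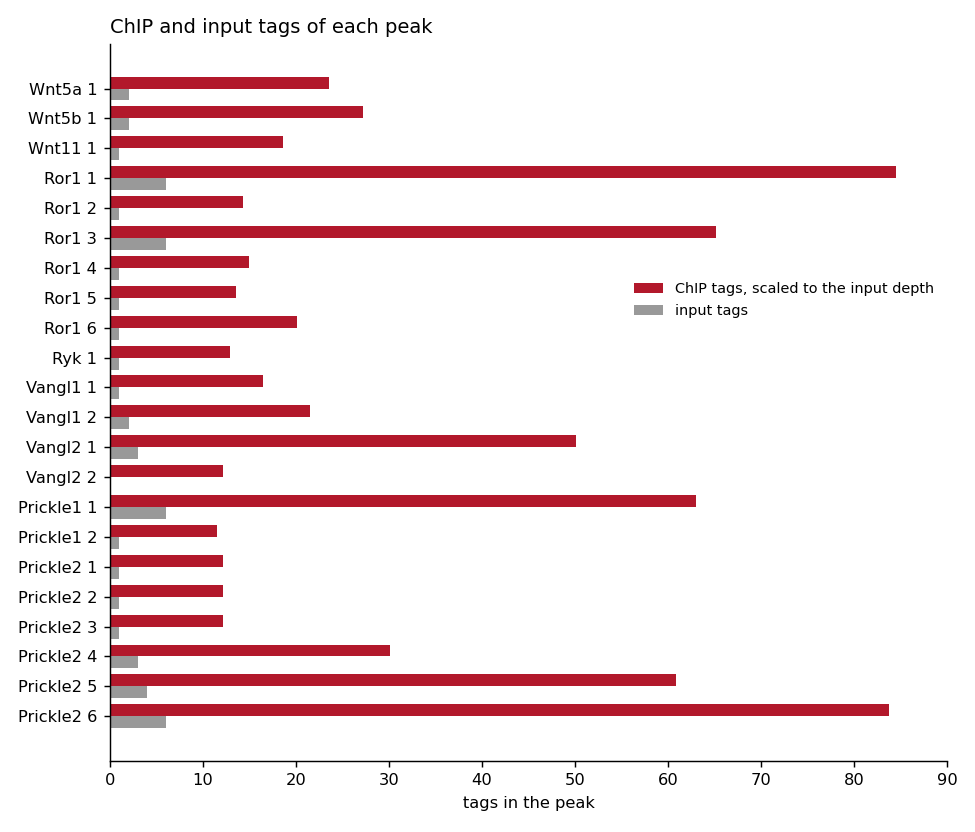
ChIP tags scaled to the input depth (red) and input tags (grey) of each of the 22 peaks on a linear x axis. Ror1 peak 1 and Prickle2 peak 6 stand out at 84.5 and 83.8 scaled ChIP tags, each against 6 input tags, and Vangl2 peak 2 has no input tag.

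ChIP tags were spread unevenly over the 22 peaks. The 22 peaks held 951 ChIP tags against 51 input tags, and the 5 deepest (Ror1 1 and 3, Prickle1 1, Prickle2 5 and 6) held 499 of the 951, or 52.5%. Ror1 and Prickle2 together held 12 peaks and 62.3% of the tags. Tags were not divided by peak width here, and the share of tags in the deepest peaks of the whole list is not given. At the other end, 8 peaks (36.4%) had at most 20 ChIP tags, against 29% of all peaks.

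As a set the peaks were not stronger than the rest of the list. Their median score was 22 (range 17 to 90), against 25 over all 9165 peaks (17 to 271). Their median of ChIP tags was 27, against 30. Scores above the list's median were found in 8 of the 22 (36.4%), against 48.7% of all peaks. By ChIP tags, 4 of the 22 (18.2%) were among the top 10.1% of all peaks, so the set held both weak regions and a few deep ones.

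Fold over input could not order the peaks. The median was 13.6, against 12.9 over all peaks, but 11 of the 22 peaks had a single input tag. The largest lower bound of a fold, 6.28, was below the smallest upper bound, 29.4, so every pair of intervals overlapped. The authors' Poisson p-value against input ran from 1.86e-64 for Ror1 peak 1 to 1.00e-08 for Prickle1 peak 2. Set against the mean density over the genome, ChIP tags reached a median of 3.59 times that mean in the 22 peaks and 4.17 times in all peaks. For input tags these medians were 0.208 and 0.219, both below the input's own mean. The caller listed only regions that passed its required fold over input, and the smallest fold was 10.03 in both sets. Listed peaks were therefore selected for few input tags as well as for many ChIP tags. The folds given here combine sparse input with ChIP tags above their mean, and how much this selection adds to them was not tested.

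**Figure D4:**
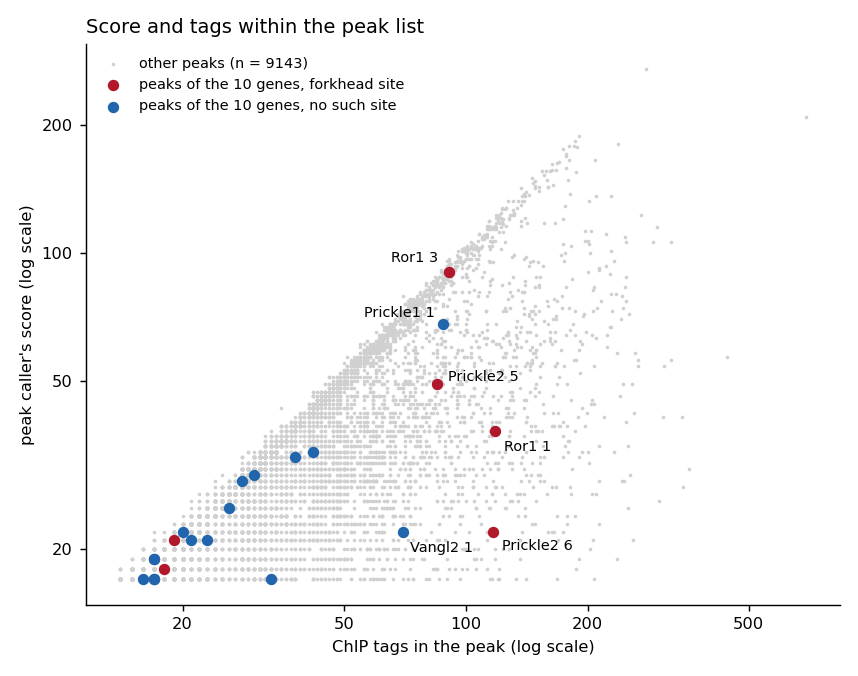
Score against ChIP tags, both on log scales, for the 22 peaks (red with and blue without a central forkhead site) and the other peaks of the list (grey). Ror1 peak 3 lies on the upper edge, where score and tags are about equal (90 and 91), whereas Ror1 peak 1 and Prickle2 peak 6 have more tags (118 and 117) and lower scores (38 and 22).

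Forkhead sites were not more frequent in these peaks than in the list. The central 200 bp held one in 6 of 22 peaks (27.3%, Wilson 95% interval 13.2 to 48.2), against 40.8% of all peaks and 18.2% of windows 2000 bp upstream of all peaks. Away from promoters, 6 of 19 had one (31.6%, 15.4 to 54), against 51.5% of all such peaks. The 6 peaks belonged to Ror1, Ryk and Prickle2. In whole peaks, 13 of 22 held a site (59.1%), against 64.3% of all peaks.

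Most central sites were in the deeper peaks, and none was in a GC-rich one. Of the 5 peaks with over 80 ChIP tags, 4 had a central site and the fifth, Prickle1 peak 1, had one farther out. Of all 1052 peaks that deep, 66.1% had a central site. Of the 17 peaks with at most 80 tags, 2 had one, against 37.6% of all such peaks. None of the 5 peaks with at least 60% GC had a central site, where 5.44% of all such peaks did, and 6 of the 17 others had one, against 51.8%. The 6 peaks with a central site had a median of 88 ChIP tags (18 to 118), against 24.5 in the 16 without (16 to 88).

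**Figure D5:**
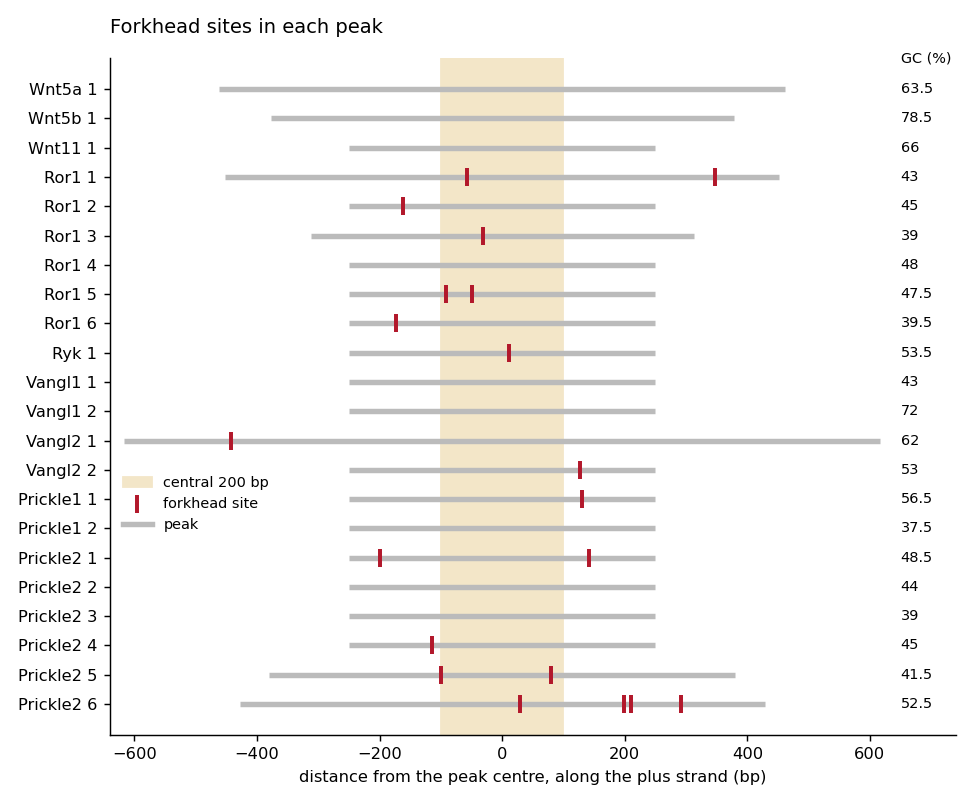
Forkhead sites (red ticks, at the middle of the site) along each of the 22 peaks (grey bars), with the distance from the peak centre on the x axis (bp), the central 200 bp shaded and the GC content of that window at the right. Prickle2 peak 6 has 4 sites, the tick of Prickle2 peak 5 at the edge of the shading belongs to a site that reaches outside the window, and Wnt5a, Wnt5b and Wnt11 have none.

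Sites of other factor families were searched in the same central windows. GGAATG, the TEAD sequence, was in 6 of 22 (27.3%), against 9.97% of all centres and 10.8% of upstream windows, at Ror1 1, 3 and 6, Vangl1 2, Vangl2 2 and Prickle1 1. The E-box CATCTG, bound by TWIST-type factors, was in 5 (22.7%), against 16.1% of all centres. TCF/LEF sequences (CTTTGAA or CTTTGAT), the letters bound by factors of the canonical Wnt pathway, were in 2, at Vangl1 1 and Prickle2 2. This was 9.09%, against 6.87% of all centres and 8.15% of upstream windows. AP-2 (GCCNNNGGC) was in 3 (13.6%, against 11.8% of all centres) and SOX (AACAATG or AACAAAG) in 2 (9.09%, against 10.7%). Homeobox (TAATTA) and SP/KLF (GGGGCGGG) were in 1 each (4.55%, against 5.71% and 6.28%). RUNX (TGTGGTT) and CRE (TGACGTCA) were in none, against 5.11% and 0.382% of all centres. With 22 windows and 10 families searched, single counts such as these were not tested, and SOX and forkhead letters can share bases.

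Other genes of noncanonical Wnt and planar polarity signalling also had peaks. Of 52 such genes, 26 (50%) had at least 1 and 45 peaks were counted in all, against 23.9% of all protein-coding genes with a peak. Among genes with surroundings as long as those of the 10 genes, 39.3% had a peak, but the lengths for the 52 are not given here. The 52 were chosen with earlier results of these data known. The highest-scoring were Daam1 (99), a formin of Wnt signalling to the cytoskeleton, and the ligand gene Wnt16 (83). The Daam1 peak at chr12:72864141-72864767 held 104 ChIP tags against 7 input tags, 67.6 kb from the TSS, and the Wnt16 peak at chr6:22215439-22216066 held 81 against 5, 22.5 kb from the TSS. Next came Dact1 (54), which encodes a Dishevelled-binding protein and had 5 peaks, Mapk8 (47), the kinase JNK1, the cadherin genes Celsr3 (46) and Fat4 (45), the GTPase gene Rac1 (42) and the ubiquitin ligase gene Smurf2 (38). Only Dact1, Fat4 with 4 peaks and Gpc6 with 6 had at least 3, Gpc6 being a glypican gene named here after its values were seen. None of the Dishevelled genes Dvl1, Dvl2 and Dvl3 had a peak, nor did Celsr1, Celsr2, Ptk7 or Scrib, which were also named after their counts were seen.

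The limit of 100 kb left out some peaks for which a gene of the set has the nearest TSS. Just inside it lay Vangl1 peak 1 at 95.8 kb (score 21). Ror1 peak 5 at 108 kb counted through the gene body. Just outside lay a peak nearest to the Prickle1 TSS at chr15:93538177-93538677 (28 ChIP tags against 2 input tags, score 21) and one 117 kb from the Wnt11 TSS (22 against 1, score 17). Farther out, Wnt5a had the nearest TSS to peaks at 129 kb (chr14:29188365-29188995, 63 ChIP tags against 4 input tags, score 61), 141 kb (57 against 3, score 26) and 224 kb. The first of these held more tags than the counted peak of Wnt5a, which had 33. Prickle1 likewise had the nearest TSS to peaks at 308 kb (62 against 4, score 68) and 324 kb (156 against 10, score 69).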

How the data were processed

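Reads were aligned to mm9, and Bowtie 1.0.0, SAMtools 0.1.19 and HOMER (version not given in the sources used here) are named in the submitters' processing notes. Per the file headers, HOMER called peaks in its histone style with the input library as control, stitching peaks of 500 bp into wider regions and counting at most 1 tag per position. The headers give a tag threshold of 17, a fold of 10 over input and a fold of 10 over the surrounding 10 kb. The listed tags nevertheless go down to 14, and the reason was not tested.

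The deposited signal was ChIP tags per 10000000, and multiplied by the library total it came within 0.134 of a whole tag for every peak (tolerance 0.15). The deposited control signal was the input tags, written as 0.5 where there were none. The deposited fold was the ratio of ChIP tags, scaled to the input depth, to input tags, and the input total was derived from that scaling. The deposited score is the caller's own, and the deposited p-value is the authors' Poisson value against input. Nothing was pooled over replicates.

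All 9165 peaks lie within the chromosomes of NCBIM37 (mm9). Genes are those of GENCODE vM1, matched by symbol, and starts of all protein-coding transcripts counted as TSS. Fold intervals are exact and conditional on both tag counts, and those of tags are exact Poisson. With 1 library of each kind no test was made. Assignment, motif search and fold intervals were tested on simulated data (Python 3.11.15, SciPy 1.17.1). The genes to be named were the 10, the 8 highest-scoring of the other pathway genes and genes that a peak lay in or nearer to. Gpc6, Dvl1, Dvl2, Dvl3, Celsr1, Celsr2, Ptk7 and Scrib were named in addition, after their values were seen. Members and lists were chosen with earlier results of these data known. Alternatives covered assignment, stricter peaks and the motif window.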

Additional observations from a re-analysis of the deposited data

How the results depend on the processing

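Of 49 recomputed values, 40 stayed within 1.5 times the count, within the interval of the share, or within the interval of the median score (19 to 33, by order statistics), and 9 moved. The rule of assignment (10 kb, 50 kb, the TSS condition alone, 1 TSS a gene, TSS of every biotype, any base of the peak inside the gene) moved none of the 5 results. It left 8 or 9 genes and 17 to 22 peaks. With a fold of at least 15, 5 of the 10 genes had a peak, 7 peaks remained and 16 of the other pathway genes had one. With over 20 ChIP tags, 14 peaks remained (63.6%, against 71% of all peaks), at 8 genes. Among the 50% of all peaks with the highest scores, ties ordered by tags, 5 genes had a peak, 8 peaks remained with a median score of 36, and 17 of the other pathway genes had one. These filters leave fewer peaks by construction. The shares of all genes that keep a peak under them are not given here, so these counts do not set the 10 genes against the list. The share of peaks with a forkhead site was 59.1% over whole peaks (64.3% of all peaks), 13.6% in the central 100 bp and 31.8% with ACAAACA added. For the central 100 bp and for ACAAACA the shares of all peaks are not given here. No paired analysis was possible because there is 1 ChIP library and 1 input library. Precision is lowest at the 8 peaks with at most 20 ChIP tags, and a single input tag leaves the fold of 11 peaks open over a wide interval.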

Other observations

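In 3 of the 22 peaks a forkhead site shared bases with the E-box CATCTG: Ror1 peak 3 and Prickle2 peaks 5 and 6. This arrangement was noticed in the printed sequences and was then counted, so it is a description without a test. Such an overlap was present in 77 of all 9165 peaks (0.84%), 3 of them among the 22, and in 0.36% of windows of equal width 5 kb upstream. Having both letters somewhere in the peak was common, in 10 of the 22 peaks and in 28.5% of all peaks.

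At both Prickle2 peaks the joint letters, read on the strand of the forkhead site, were ATAAACAGATG with 2 shared bases, found in 13 peaks of the list and 6 of the upstream windows. At Ror1 peak 3 they were CAGATGTAAACA with 1 shared base, found in 10 peaks and 3 upstream windows. The 2 Prickle2 peaks lie 190 kb apart, and neither joint site lies wholly within the central 200 bp. Capitals mark the joint letters, with 30 bases on either side on the plus strand of mm9.
Ror1 peak 3, chr4:99817525-99817596: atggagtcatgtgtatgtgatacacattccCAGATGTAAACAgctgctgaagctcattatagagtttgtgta
Prickle2 peak 5, chr6:92554845-92554915: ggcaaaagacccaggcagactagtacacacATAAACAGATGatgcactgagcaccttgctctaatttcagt
Prickle2 peak 6, chr6:92364889-92364959: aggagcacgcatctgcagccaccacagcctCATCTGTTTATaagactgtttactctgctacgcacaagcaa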
